A study of Mus musculus with 5 samples.

Results

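The dopamine receptor genes Drd1, Drd2, Drd3 and Drd5 were followed across the nuclei of the mouse central amygdala together with 4 genes that striatal neurons use to answer dopamine: Adora2a, Ppp1r1b, Gnal and Rgs9. These 8 genes were chosen by name from the 22532 genes of the count tables. Single nuclei had been profiled from dissected central amygdala of C57BL6 mice with droplet 3′ sequencing, in 5 libraries that each pooled 1 male and 1 female. Of these, 3 libraries came from fed mice and 2 from mice that were fasted before collection. Fed 1, fed 2, fasted 1 and fasted 2 were from mice of 8 weeks. The fed 3 library differed from all others: its mice carried the Htr2a-Cre transgene, a bacterial artificial chromosome in which Htr2a regulatory sequence drives Cre, had received an AAV for Cre-dependent mCherry in the central amygdala, and were 12 weeks old. The fasted 1 label gives 20 h without food and the fasted 2 label 21 h. Since every library pooled tissue of 2 mice, an SD given here is the spread between libraries and not between single animals. An SE belongs to a fitted difference. Where the library is a block in the fit, shifts shared by a whole library do not enter it.

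Dopamine receptors are G protein-coupled receptors of opposite kinds. Drd1 and Drd5 encode D1-like receptors, which raise cyclic AMP, and Drd2 and Drd3 encode D2-like receptors, which lower it. In the dorsal striatum, Drd1 and Drd2 mark projection neurons of the direct and the indirect pathway, and the indirect neurons also carry the adenosine receptor encoded by Adora2a, which raises cyclic AMP. Gnal encodes the olfactory-type stimulatory G protein alpha subunit that couples the D1-like receptors and the Adora2a receptor to adenylyl cyclase, Ppp1r1b the phosphatase inhibitor that protein kinase A switches on, and Rgs9 a regulator that speeds the shut-off of inhibitory G proteins. The central amygdala and the territories around it hold GABAergic neurons that resemble those of the striatum, which is why these genes are read together here.

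The transcripts differ in length, which matters because intronic reads were counted. On GRCm39, Drd1 lies at chr13:54204872-54209760 on the minus strand and spans 4.889 kb with 2 exons, and Drd5 lies at chr5:38476710-38479861 on the plus strand as a single exon of 3.152 kb. Drd2 at chr9:49251654-49319477 and Drd3 at chr16:43574389-43643295, both on the plus strand, span 67.824 and 68.907 kb. Ppp1r1b lies at chr11:98239169-98248624 on the plus strand, Adora2a at chr10:75152560-75170628 on the plus strand, Rgs9 at chr11:109116158-109189025 on the minus strand, and Gnal spans 138.577 kb. A long intron offers more places for a read, so the tests compared the level of 1 gene between classes. Levels of unlike genes given side by side do not tell which of them is transcribed more. Gnal overlaps Chmp1b on its own strand and Mppe1 on the other, both of which the tables count, so its counts depend on how shared reads were assigned.

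The 3 receptor genes that the results turn on differ in the 250 bases before their start. RefSeq sequences on GRCm38.p6 held an entry for 5 of the 8 genes. The Drd1 window lies at chr13:54055659-54055908 on the minus strand, the first of 2 entries for that gene, the Drd2 window at chr9:49340153-49340402 on the plus strand and the Drd3 window at chr16:43761971-43762220 on the plus strand. They are shown 5′ to 3′, with GC boxes in capitals.
Drd1: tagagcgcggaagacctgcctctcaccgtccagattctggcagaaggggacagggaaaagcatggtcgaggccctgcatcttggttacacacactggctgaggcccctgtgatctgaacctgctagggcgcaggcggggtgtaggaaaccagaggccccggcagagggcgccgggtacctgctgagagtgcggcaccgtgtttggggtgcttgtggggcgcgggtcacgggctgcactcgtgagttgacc
Drd2: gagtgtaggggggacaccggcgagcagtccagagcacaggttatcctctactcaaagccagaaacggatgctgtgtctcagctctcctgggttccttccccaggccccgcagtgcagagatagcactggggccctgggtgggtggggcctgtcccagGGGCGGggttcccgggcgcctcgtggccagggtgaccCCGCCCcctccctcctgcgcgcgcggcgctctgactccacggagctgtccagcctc
Drd3: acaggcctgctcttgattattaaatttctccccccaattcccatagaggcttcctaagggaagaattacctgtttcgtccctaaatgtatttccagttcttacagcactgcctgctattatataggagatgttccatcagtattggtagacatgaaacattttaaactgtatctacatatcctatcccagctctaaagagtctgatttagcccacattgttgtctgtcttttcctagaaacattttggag
The Drd1 window was 64.0% G or C, the Drd2 window 68.8% and the Drd3 window 39.2%, beside a median of 52.4% over all 32851 windows of the table. Of 5 short motifs searched on both strands, 1 was found in these windows: the GC box GGGCGG occurred in Drd2 at −93 to −88 and, on the other strand, at −56 to −51 relative to the start, and 32.7% of all windows hold it. Not found were the TATA box TATAAA, which 12.4% of all windows hold, the nuclear receptor site AGGTCA (14.0%), the cyclic AMP response site TGACG (17.8%) and the forkhead core TGTTTAC (3.17%). No occurrence says only that these letters are missing from this window.

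A total of 7161 nuclei had 500 to 8000 genes and less than 0.8% mitochondrial UMIs. The libraries kept 1130 to 1734 nuclei and 9763452 to 29703855 UMIs each, with a median of 6608 to 16367 UMIs per nucleus. The fed 1 and fasted 1 libraries were the shallowest. No more than 1 cell barcode was shared by any pair of libraries, and mCherry UMIs occurred in fed 3 alone. Of these nuclei, 5029 were inhibitory (Gad1 and Gad2 together at 2 or more UMIs, no Slc17a7). They were assigned to 8 classes by raw UMIs of Pde1c (495 nuclei), Foxp2 (460) and Rarb (755), each at 5 or more in that order, and then of Prkcd (316), Calcrl (221), Rai14 (109), Sst (195) and Dnah5 (348), each at 2 or more. The study places Pde1c nuclei in the IPAC, a striatum-like band that runs along the back limb of the anterior commissure, Rarb nuclei in the amygdalostriatal area and Foxp2 nuclei among the intercalated cells. The remaining 1834 nuclei were ungated and 296 passed several gates. Markers that no gate used were highest in their own gate for Prkcd (3 of 3), Rai14 (3 of 3), Dnah5 (4 of 4) and Foxp2 (2 of 2), for Calcrl in 2 of 3 and for Sst in 3 of 5. No such marker was set for the Pde1c gate, which went unchecked. Of 4 markers of basolateral interneurons, Nkx2-1 (4.84 CPM), Lhx6 (15.9) and Npy (30.8) were highest in the Sst gate, and Kit (29.4) was second there to the Dnah5 gate (35.2). Their part in the levels of the Sst class was not tested. The check markers went against the Rarb label, since neither Pde10a nor Bcl11b was highest in that gate. The classes are therefore called by their gate genes.

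Drd2 and Adora2a were highest in the same pair of classes, Rarb and Pde1c. In CPM (UMIs of a gene scaled to 1000000 UMIs of that class in that library), Drd2 in the Rarb class was 226, 146 and 171 in fed 1, 2 and 3 and 246 and 132 in fasted 1 and 2. In the Pde1c class it was 174, 104 and 171 in the fed and 274 and 122 in the fasted libraries. Every library of both classes was above every library of the Dnah5 class, where Drd2 lay between 3.80 and 8.25 CPM.

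Each class was compared with the mean log level of the other 7, with the library as a block (edgeR quasi-likelihood test, adjusted over 9599 genes). The 7 genes that passed the filter on low counts gave 56 such tests, of which 19 were called higher and 18 lower. The filter ran over all classes together, so a gene high in 1 class was also tested where it had few UMIs. A lower call there is partly the other side of that high level. Over all genes and the 8 classes, 9.29% of tests were called higher and 7.35% lower. By class, 15.7% of genes were called higher and 15.6% lower for Prkcd, 8.89% and 6.84% for Calcrl, 9.81% and 8.7% for Rai14, and 5.2% and 3.81% for Sst. The shares were 9.0% and 6.89% for Dnah5, 10.2% and 8.58% for Foxp2, 7.92% and 4.7% for Rarb, and 7.54% and 3.63% for Pde1c. Drd2 averaged 184 ± 49.5 CPM (SD, n = 5) in the Rarb class and was 2.67 ± 0.10 (SE) higher on the log2 scale than the mean of the others (adjusted p = 7.22e-24). In the Pde1c class it averaged 169 ± 66.4 CPM and was 2.52 higher (adjusted p = 7.80e-22). The Rarb and Pde1c classes themselves differed by 0.14 log2 units with an interval of −0.12 to 0.39 (2 SE on either side, adjusted p = 0.754), so their order was not resolved.

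Rai14 nuclei formed the next step for Drd2, at 124, 45.6 and 55.6 CPM in the fed and 90.8 and 49.4 in the fasted libraries. Their mean log level was 1.04 above the mean of the other 7 classes (adjusted p = 6.25e-05), 1.30 below the Pde1c class (adjusted p = 6.75e-07) and 0.76 above the Calcrl class (adjusted p = 0.0155). The study marks a cluster of the medial subregion by Drd2 and Rai14, using the fed libraries compared here. High Drd2 in Rai14 nuclei was therefore known from these data and is not an independent result. On the plain CPM scale the Rai14 mean of 73.2 ± 33.8 was close to the 64.0 of the other 7, which the Rarb and Pde1c classes raise, and it was above that mean in 2 of 5 libraries. In Rarb, Pde1c and Rai14 nuclei alike, Drd2 CPM was highest in fed 1 or fasted 1, the libraries with a median of 8326 and 6608 UMIs per nucleus against 13814 to 16367 in the others. The part of depth in this was not tested.

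The lowest Drd2 levels were at 12.1 ± 4.11 CPM in the Prkcd class (log2 difference −1.83), 12.6 ± 7.63 in the Sst class (−1.44) and 5.99 ± 1.94 in the Dnah5 class (−2.67, adjusted p = 4.19e-12). Glia were read beside these, as classes that should lack the receptors. Astrocyte nuclei held Drd2 at 6.78 ± 7.61 CPM from 5 UMIs and oligodendrocyte nuclei at 14.2 ± 11.1 CPM from 5 UMIs. In CPM, the Dnah5, Prkcd and Sst means were thus no higher than the oligodendrocyte mean. Glial nuclei were shallower, with library medians of 2604 to 4770 UMIs in astrocytes and 1525.5 to 4041 in oligodendrocytes, against 7656.5 to 20402 in the Dnah5 class. CPM at unlike depth does not compare UMIs per nucleus, and the part of free RNA in these levels was not tested. After each nucleus was thinned to 4000 UMIs, a Drd2 UMI was present in 43.0% ± 7.27 of Rarb nuclei, 35.8% ± 11.2 of Pde1c nuclei, 29.1% ± 4.49 of Rai14 nuclei and 2.80% of Dnah5 nuclei. In astrocytes this was 2 of 73 nuclei. Foxp2 nuclei, at 24.4 ± 4.75 CPM, were 0.46 below the other classes (adjusted p = 0.0488), a call that ended under 10 of 15 other settings.

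**Figure D1:**
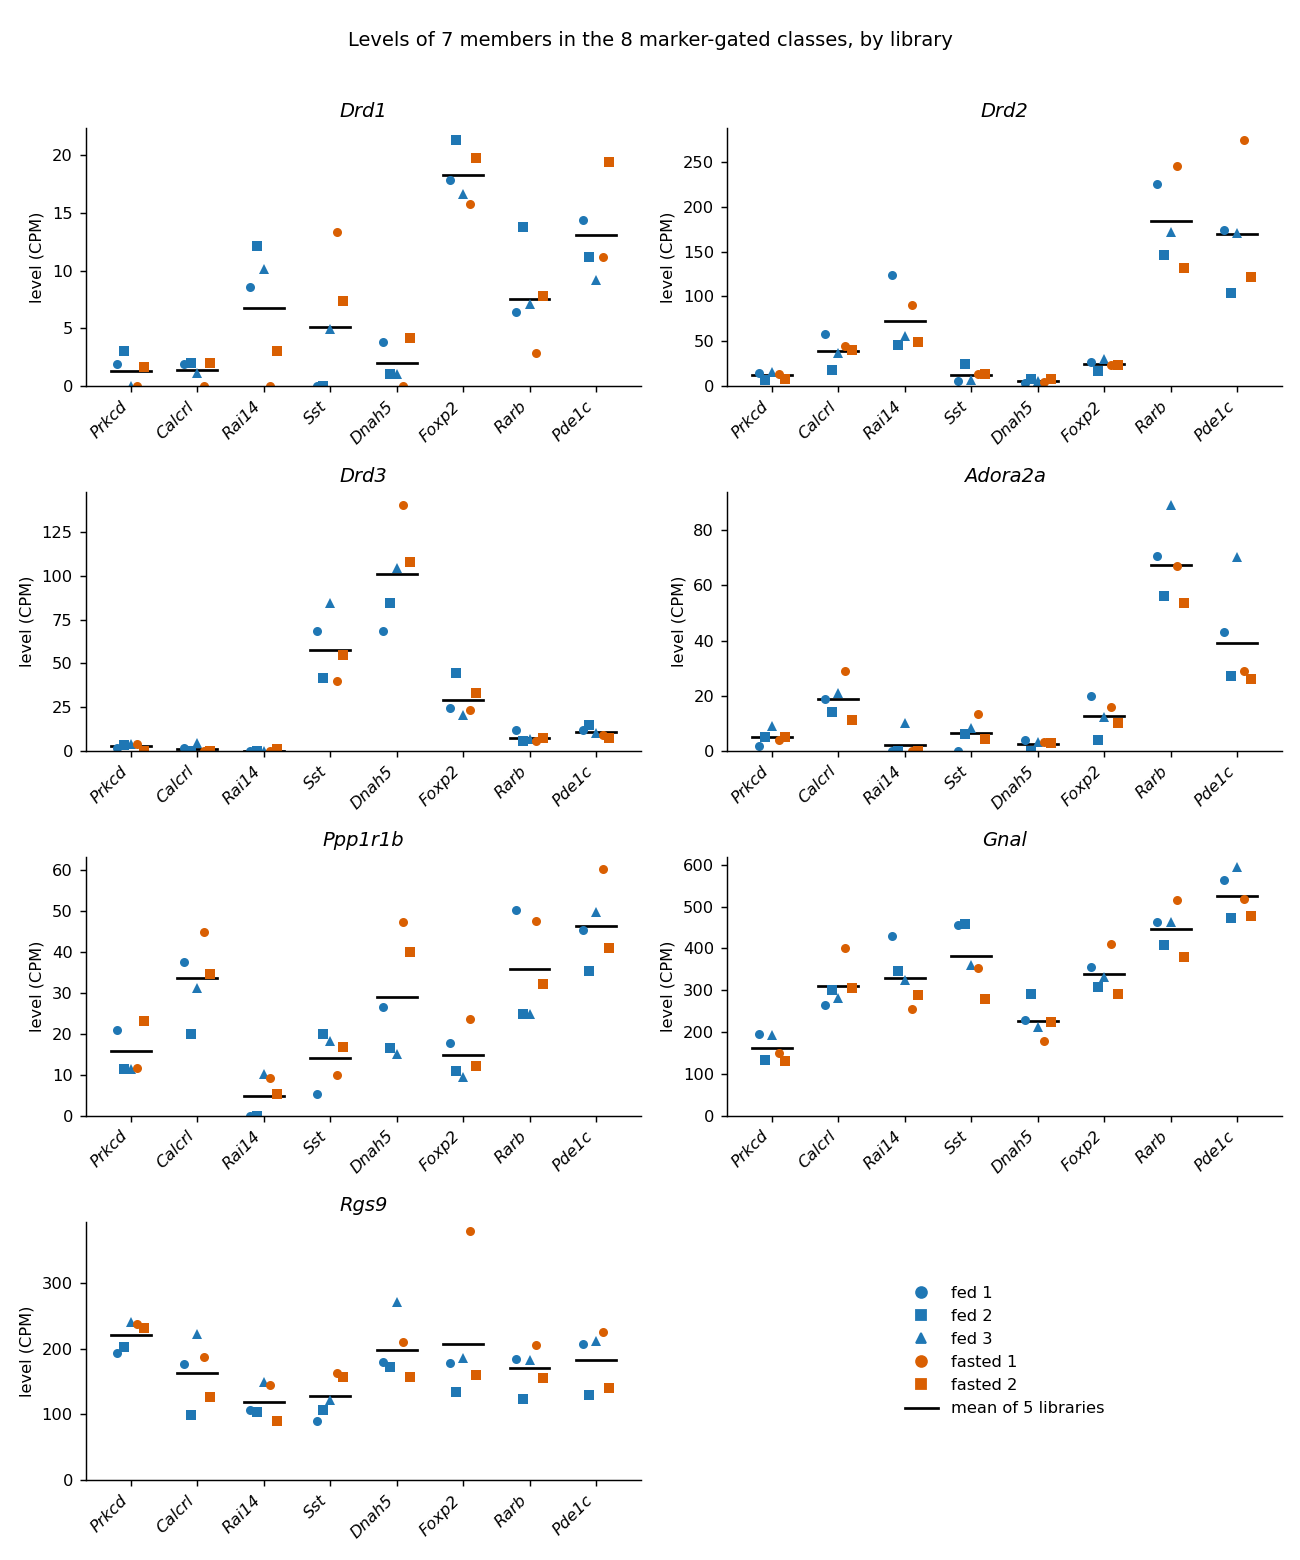
Level of 7 of the 8 genes in CPM (vertical axes, each from 0 on its own linear scale) in the 8 marker-gated classes (horizontal axes), without Drd5. Points are single libraries, in blue for fed and orange for fasted, and bars are the means of the 5 libraries: Drd2 and Adora2a are highest in the Rarb and Pde1c classes, Drd3 in the Dnah5 class and Drd1 in the Foxp2 class, while Rgs9 means stay between 119 and 221 CPM.

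The study describes Drd2 cells that overlap its Calcrl cluster, again from the fed libraries. Here the Calcrl class depended on the order of the gates. As gated, its Drd2 was 39.7 ± 14.7 CPM and 0.17 above the other classes (adjusted p = 0.620). With higher gate thresholds it was called 0.61 higher (adjusted p = 0.0109). In addition, 132 of the 755 Rarb nuclei (17.5%) and 81 of the 495 Pde1c nuclei (16.4%) also held 2 or more Calcrl UMIs, and Drd2 in those Rarb nuclei was 209 ± 72.2 CPM against 180 ± 63.2 in the rest. When the Calcrl gate was put before the Rarb gate, a setting chosen after seeing the data, the Calcrl class grew to 353 nuclei, its Drd2 was 111 ± 27.2 CPM (74.1 to 145) and its difference was 1.70 ± 0.14 (adjusted p = 2.09e-12). The Rarb class of 623 nuclei then stayed at 2.38 above the others (adjusted p = 9.48e-19).

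Adora2a had its highest levels in the same pair of classes, but these were resolved from each other. In the Rarb class it was 70.5, 56.2 and 89.2 CPM in the fed and 66.9 and 53.8 in the fasted libraries, with a mean of 67.3 ± 14.1 and a log2 difference of 3.16 ± 0.15 (adjusted p = 4.74e-21). In the Pde1c class it was 43.0, 27.3 and 70.3 in the fed and 29.0 and 26.0 in the fasted libraries, with a log2 difference of 2.30 (adjusted p = 8.04e-14). The lowest Rarb library exceeded 4 of the 5 Pde1c libraries, fed 3 being the exception, and the pair differed by 0.75 log2 units (adjusted p = 0.00192). The Calcrl class was next at 18.8 ± 6.93 CPM. It was called 0.88 higher than the mean log level of the others (adjusted p = 0.0197), although its plain mean lay below the 19.3 CPM of the others and the call ended in 5 of 15 settings. This level too depended on the order of the gates. With the Calcrl gate before the Rarb gate, chosen after seeing the data, it was 48.4 ± 10.6 CPM and 2.42 higher (adjusted p = 1.41e-13). The Rarb class then held 61.9 ± 16.8 CPM. Adora2a was called lower in the Dnah5 (−2.17), Rai14 (−2.52) and Prkcd (−1.03) classes, the last of which lost its call without fed 1, fed 3 or fasted 1. These classes held 13, 4 and 25 Adora2a UMIs. Rai14 nuclei thus had Drd2 at 73.2 CPM with Adora2a at 2.02 ± 4.52 CPM, from 2 nuclei.

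Drd1 was sparse everywhere and highest in the Foxp2 class. There it was 17.8, 21.3 and 16.6 CPM in the fed and 15.8 and 19.7 in the fasted libraries, from 136 UMIs in all. Its mean of 18.2 ± 2.24 CPM was 2.17 ± 0.26 log2 units above the other classes (adjusted p = 1.03e-08). The Pde1c class followed at 14.3, 11.1 and 9.17 CPM in the fed and 11.1 and 19.4 in the fasted libraries (log2 difference 1.65, adjusted p = 9.04e-06). These ranges overlapped, and none of the 7 pairs of neighbours in the order of Drd1 levels differed in the test. Rarb nuclei held 7.57 ± 3.93 CPM and a difference of 0.82 (adjusted p = 0.0390) that was lost without any single fed library. Drd1 was lower in Prkcd nuclei (1.33 CPM, −2.08, adjusted p = 0.00290) and in Calcrl nuclei (1.41 CPM, −1.85, adjusted p = 0.0306), where it was level with the 1.22 CPM of astrocytes and the 1.37 CPM of oligodendrocytes. The Prkcd and Calcrl levels rest on 6 and 5 UMIs. In Sst nuclei no Drd1 UMI was counted in fed 1 and fed 2, while fed 3, fasted 1 and fasted 2 gave 4.97, 13.3 and 7.33 CPM from 3, 4 and 10 UMIs.

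Drd3 had a different place from the other receptors. In the Dnah5 class it was 68.3, 84.6 and 104.4 CPM in the fed and 140.8 and 107.8 in the fasted libraries, and its mean of 101 ± 27.3 CPM was 4.04 ± 0.19 log2 units above the other classes (adjusted p = 1.03e-20). Sst nuclei held 68.7, 41.4 and 84.5 CPM in the fed and 39.9 and 54.9 in the fasted libraries (3.08, adjusted p = 1.78e-12), and Foxp2 nuclei 29.2 ± 9.55 CPM (2.12, adjusted p = 4.61e-09). These steps were called over all 5 libraries: Dnah5 was 0.84 above Sst (adjusted p = 0.00968), Sst 0.84 above Foxp2 (adjusted p = 0.0133) and Foxp2 1.58 above Pde1c (adjusted p = 1.18e-05). Fed 1 did not show the first step, with 68.3 CPM in Dnah5 and 68.7 in Sst nuclei. The Dnah5 and Sst means were 85.8 and 64.9 CPM in fed and 124 and 47.4 CPM in fasted libraries. Tests of pairs of classes were not repeated under other settings. In the Rai14 class, 1 Drd3 UMI was counted in 109 nuclei. Drd3 was called lower there and in the Prkcd and Calcrl classes, all 3 of which sat below the 5.25 CPM of astrocytes, which rests on 2 UMIs. The Prkcd and Calcrl classes held 11 and 5 Drd3 UMIs. In thinned nuclei, a Drd3 UMI was present in 26.1% ± 4.47 of Dnah5, 14.4% ± 8.96 of Sst and 10.6% ± 3.78 of Foxp2 nuclei, against 1 of 73 astrocytes.

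Over the 28 pairs of classes, Drd3 differed in 24, Drd2 in 22, Adora2a and Gnal in 20 each, Ppp1r1b in 18, Drd1 in 14 and Rgs9 in 11, where 16.8% of all tests over genes and pairs were called. Drd1 and Drd3 were thus both called higher in the Foxp2 class, and Drd1, Drd2 and Adora2a in the Rarb and Pde1c classes. For Drd1 the Foxp2 and Pde1c classes did not differ in the test (adjusted p = 0.347). In the Dnah5 and Sst classes Drd3 was called higher and Drd2 lower. Drd5 was nearly undetected: 2 UMIs were counted in 2 of the 5029 inhibitory nuclei, both in fasted 1, 1 of them in a Rarb and 1 in an ungated nucleus. It did not pass the filter and was not tested. A count of 0 in 460 Foxp2 nuclei allows a share of nuclei with a Drd5 UMI of up to 0.652% at this depth.

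**Figure D2:**
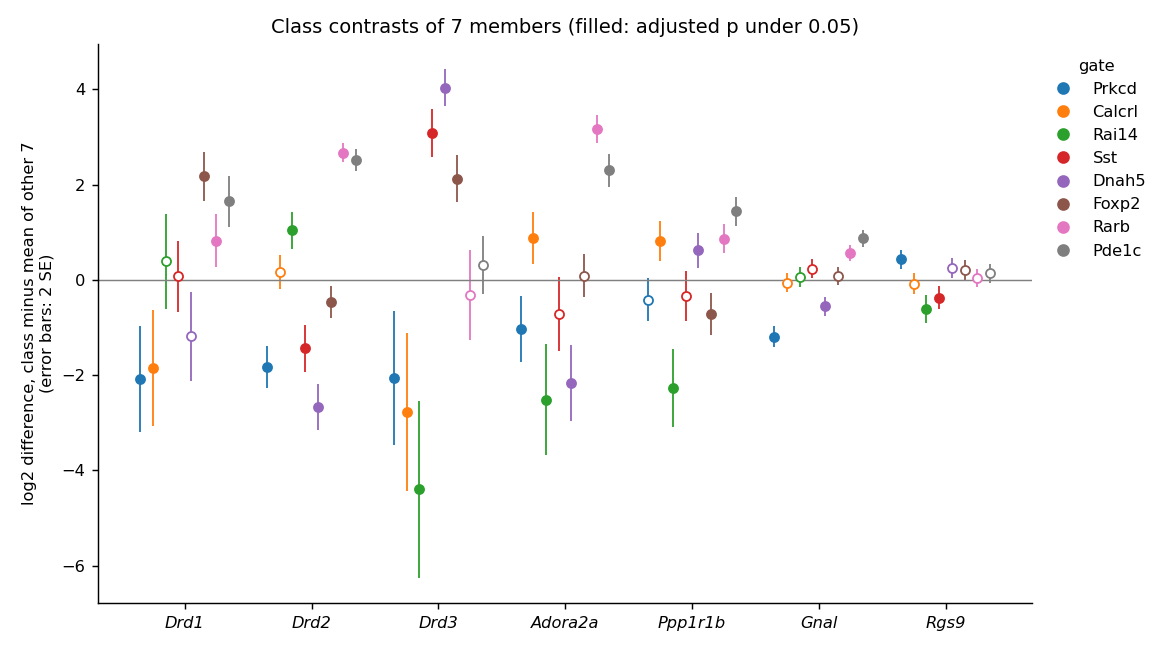
Log2 difference between a class and the mean of the other 7 (vertical axis) for the 7 tested genes (horizontal axis) in each of the 8 classes, by color, with 2 SE on either side. Filled points had an adjusted p under 0.05: Drd3 in the Dnah5 class (4.04) and Adora2a in the Rarb class (3.16) are the highest points and Drd3 in the Rai14 class (−4.40) is the lowest.

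Among the signalling partners, Ppp1r1b was highest in the Pde1c class, at 45.4, 35.4 and 49.7 CPM in the fed and 60.2 and 41.1 in the fasted libraries (log2 difference 1.44, adjusted p = 1.02e-09). The Rarb class followed at 35.9 ± 12.3 CPM (0.87, adjusted p = 2.98e-05) and the Calcrl class at 33.7 ± 9.21 CPM (0.81, adjusted p = 0.00382), the latter turning to −0.04 with lower gate thresholds. In the Dnah5 class Ppp1r1b was called 0.62 higher (adjusted p = 0.0139). That call rested on the fasted libraries, at 47.4 and 39.9 CPM against 26.6, 16.5 and 15.1 in the fed ones: it was 0.07 (adjusted p = 0.940) in fed libraries alone, and ended without fasted 1 or without fasted 2. Rai14 nuclei had the lowest level, 4.87 ± 4.81 CPM, with no UMI in fed 1 and fed 2 (−2.28, adjusted p = 3.12e-05). Foxp2 nuclei, where Drd1 was highest, were also lower for Ppp1r1b (14.8 ± 5.91 CPM, −0.72, adjusted p = 0.0151), a call lost in 5 of 15 settings.

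Gnal was detected in every class. In the Pde1c class it was 564, 472 and 595 CPM in the fed and 517 and 477 in the fasted libraries, with a mean of 525 ± 53.6 and a log2 difference of 0.87 (adjusted p = 1.39e-10). Rarb nuclei averaged 446 ± 52.6 CPM (0.57, adjusted p = 2.03e-06). At the other end, Prkcd nuclei held 196, 133 and 193 CPM in the fed and 150 and 131 in the fasted libraries (−1.19, adjusted p = 2.44e-12), with no overlap with the Pde1c class, and Dnah5 nuclei 227 ± 40.9 CPM (−0.55, adjusted p = 3.86e-05). Rgs9 varied least. It averaged 119 ± 26.7 CPM in Rai14 nuclei (−0.61, adjusted p = 0.00119) and 221 ± 21.3 in Prkcd nuclei (0.43, adjusted p = 0.000602), and no neighbours in its order differed in the test. In Foxp2 nuclei 1 library stood apart, fasted 1 with 379 CPM, where the other 4 held 133 to 185 CPM. In Prkcd nuclei the partners therefore moved apart, Rgs9 being called higher and Gnal lower.

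Of 24 genes of the wider cyclic AMP cascade, 23 were tested. In the Rarb class 13 were higher, 1 lower and 9 not called (median log2 difference 0.43), and in the Pde1c class 13 were higher, 0 lower and 10 not called (median 0.29). The median over all genes was −0.01 in both, where 7.92% (Rarb) and 7.54% (Pde1c) of all genes were called higher. Adcy5, the main striatal adenylyl cyclase, was 0.76 higher in the Rarb class (510 CPM) and 1.09 higher in the Pde1c class (612 CPM). Gng7, the gamma subunit that pairs with the Gnal product, was 0.82 and 1.15 higher, and the phosphodiesterase genes Pde1b (0.80 and 1.01) and Pde10a (0.67 and 0.80) were higher as well. Gnas, the general stimulatory alpha subunit, was the exception, 0.40 lower in Rarb nuclei (adjusted p = 0.00863). Rai14 nuclei, where Drd2 was also called higher, had 5 of the 23 higher and 8 lower (median −0.17), beside 9.81% of all genes called higher and 8.7% lower. Lower there were Adcy5 (−0.92), Gng7 (−0.94), Pde10a (−0.83) and the phosphatase gene Ptpn5 (−1.19). In the Prkcd class, 10 of the 23 were lower and 3 higher (median −0.18), beside 15.6% of all genes called lower and 15.7% higher.

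Genes of the indirect and direct striatal pathways were called across the gates in different combinations. Of the 6 indirect pathway genes tested, 5 were higher in the Rarb class, beside 7.92% of all genes. These were Penk, the enkephalin precursor (231 CPM, 1.35), Sp9 (1.29) and Six3 (1.14), transcription factors of striatal development, the kainate receptor gene Grik3 (365 CPM, 1.14) and the delta opioid receptor gene Oprd1 (0.81). In the Calcrl and Pde1c classes 3 of the 6 were higher and 0 lower, beside 8.89% and 7.54% of all genes called higher. Penk, a gene of this list, is also a check marker of the Calcrl gate. In the Rai14 class, where Drd2 was also called higher, 1 of the 6 was higher and 4 were lower (9.81% and 8.7% of all genes). The Sst class had 1 higher and 1 lower (5.2% and 3.81%), and the Prkcd class 2 higher and 0 lower (15.7% and 15.6%). All 6 indirect pathway genes were lower in the Dnah5 class (median −1.82), where Drd3 was highest and Drd2 lowest and where 6.89% of all genes were called lower. Of the 6 direct pathway genes tested, Pdyn, the dynorphin precursor, was higher in the Dnah5 (54.8 CPM, 2.42), Sst (39.7 CPM, 1.73) and Pde1c (31.4 CPM, 1.65) classes. Ebf1, a transcription factor of direct pathway neurons, was higher in the Sst (826 CPM, 2.61), Dnah5 (612 CPM, 2.13) and Rai14 (297 CPM, 1.05) classes and lower in the Rarb class (65.9 CPM, −1.47). It is also a check marker of the Sst gate. Of the 6 direct pathway genes, 3 were higher and 1 lower in the Dnah5 class (9.0% and 6.89% of all genes). The Rai14 class also had 3 higher and 1 lower (9.81% and 8.7%), and the Sst class 3 higher and 0 lower (5.2% and 3.81%). Prkcd nuclei, with little Drd1, were lower for 5 of the 6, beside 15.6% of all genes. The remaining gene, Eya1, was higher there (39.5 CPM, 1.68, adjusted p = 1.56e-09) and in the Calcrl class (1.36). The Calcrl class had 1 direct pathway gene higher and 4 lower (8.89% and 6.84% of all genes), and the Pde1c class 3 higher and 0 lower (7.54% and 3.63%). In the Foxp2 class, with the most Drd1, 1 of the 6 was called, Sfxn1 (0.32), while 4 indirect pathway genes were higher there, beside 10.2% of all genes.

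Genes that make, store or break down monoamines were also found. Ddc, the decarboxylase that makes dopamine from L-DOPA, was 183 CPM in the Prkcd class (2.02 higher) and 113 CPM in the Calcrl class (1.29 higher). Slc18a2, the vesicular monoamine transporter, was 35.8 CPM in the Dnah5 (2.65 higher, adjusted p = 1.08e-10) and 20.2 CPM in the Sst class (1.70 higher), the same pair of classes in which Drd3 was highest. Maob, a monoamine oxidase gene, was 1.68 higher in each of those classes, and it was also called higher in the Rai14 class (1.41, adjusted p = 0.0248), where Drd3 was lowest. Of 7 genes on this list, 5 passed the filter. In the Prkcd class 1 of the 5 was called higher and 3 lower, beside 15.7% and 15.6% of all genes. In the Foxp2 class 0 were higher and 3 lower (10.2% and 8.58% of all genes). The Dnah5 class had 3 and 0 (9.0% and 6.89%) and the Sst class 2 and 1 (5.2% and 3.81%). The Calcrl class had 1 and 1 (8.89% and 6.84%) and the Rai14 class 1 and 0 (9.81% and 8.7%). The Pde1c class had 1 and 0 (7.54% and 3.63%) and the Rarb class 0 and 0.

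The nuclei that held a receptor UMI were spread over gated and ungated nuclei. Of 1379 inhibitory nuclei with a Drd2 UMI, 35.6% were Rarb, 19.6% Pde1c and 24.4% ungated nuclei. Of 425 with a Drd1 UMI, 24.7% were Foxp2, 19.5% Pde1c, 16.2% Rarb and 26.8% ungated. Of 552 with a Drd3 UMI, 27.5% were Dnah5, 21.2% Foxp2 and 15.9% ungated. These shares depend on class size and depth as well as on level.

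In each of the 5 libraries, fewer nuclei held both a Drd1 and a Drd2 UMI than their separate frequencies give. In the 2899 nuclei of the 8 classes, 304 held a Drd1 UMI and 1005 a Drd2 UMI, and 62 held both, which is 20.4% of the former and 6.17% of the latter. The number expected if both were independent within bins of depth, class and library was 108. The ratio of observed to expected was 0.574 in all, and 0.563, 0.521 and 0.544 in the fed and 0.372 and 0.644 in the fasted libraries. All 5 libraries lay below 1, and the exact sign-flip permutation test over libraries gave a two-sided p of 0.0625, the smallest that 5 libraries allow. Within classes, the ratio was below 1 in all 5 libraries for Rarb (23 nuclei against 42.9 expected) and Pde1c (13 against 43.2). In the Foxp2 class, 11 nuclei held both against 11.8 expected, and its libraries lay on either side of 1. In the Sst class the count went the other way, with 6 nuclei against 2.26 expected, all 6 of them in fasted 2, and in the Calcrl class 3 nuclei held both against 0.782 expected. A Drd1 or Drd2 UMI can be missed in a nucleus that transcribes the gene, and called doublets (0.978% of nuclei) were kept, so these counts are of UMIs and not of receptors.

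For Drd2 and Adora2a the ratio was above 1 in each library (exact sign-flip p = 0.0625). A total of 517 nuclei held both against 361 expected, a ratio of 1.43 with 1.27 to 1.56 over the 5 libraries. Of the 656 nuclei with an Adora2a UMI, 78.8% had a Drd2 UMI. This held within Rarb (322 against 246), Pde1c (134 against 88.3), Calcrl (23 against 11) and Foxp2 nuclei (25 against 7.95), with every library above 1 in each. The Foxp2 class had low levels of both genes, yet 55.6% of its 45 Adora2a nuclei held Drd2. Drd1 and Adora2a were found together in 35 nuclei against 73.0 expected (ratio 0.479, all 5 libraries below 1, exact sign-flip p = 0.0625).

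Drd3 and Drd2 gave a ratio of 0.796 with 4 of 5 libraries below 1 (exact sign-flip p = 0.125), from 2 nuclei against 8.58 expected in the Sst class and 4 against 10.5 in the Dnah5 class. Drd3 and Drd1 gave 1.23 (exact sign-flip p = 0.625), with 38 Foxp2 nuclei against 28.5 expected. Ppp1r1b was found with Drd3 in 137 nuclei against 109 expected (exact sign-flip p = 0.125) and with Drd2 in 374 against 330 (all 5 libraries above 1, exact sign-flip p = 0.0625). In all, 7 pairs were compared, 6 of them added after the data were seen, and with 5 libraries none could reach 0.05 before any adjustment.

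**Figure D3:**
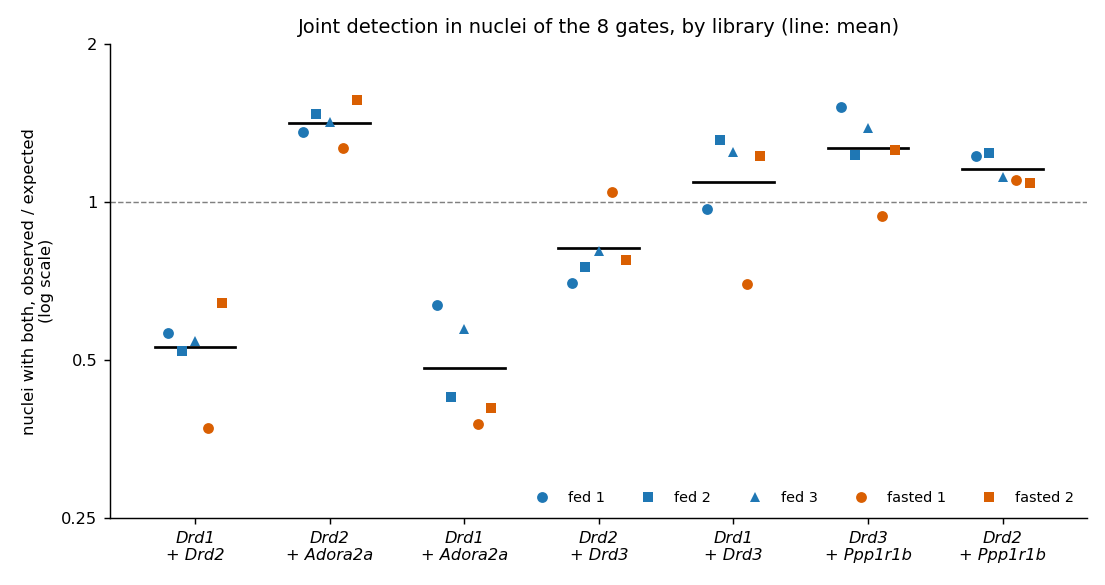
Ratio of observed to expected nuclei with UMIs of both genes (vertical axis, log scale, with 1 for independence) for the 7 pairs of genes (horizontal axis) over the 8 classes together; each point is a library, in blue for fed and orange for fasted, and lines are means. All points of Drd1 with Drd2 (0.372 to 0.644) and of Drd1 with Adora2a lie below 1, and those of Drd2 with Adora2a (1.27 to 1.56) above it.

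Nuclei with a Drd2 but no Drd1 UMI were then compared with nuclei with a Drd1 but no Drd2 UMI, within a class and with the library as a block. Fed 2, fed 3 and fasted 2 had at least 10 nuclei of both kinds, with 14, 12 and 14 Drd1-only and 65, 132 and 99 Drd2-only nuclei in the Rarb class and 13, 13 and 36 against 37, 90 and 73 in the Pde1c class. Depth differed between the kinds. In the Rarb class the Drd1-only nuclei averaged 25034, 17157 and 26878 UMIs and the Drd2-only nuclei 18947, 17013 and 20395, and in the Pde1c class they averaged 21734, 16774 and 21073 against 23698, 17392 and 23568. The part of depth in the differences was not tested. Drd1 and Drd2 made the kinds and were not tested. In the Rarb class 2.99% of 7885 genes were higher and 2.63% lower in Drd2-only nuclei, and in the Pde1c class 0.807% of 7808 were higher and 1.22% lower. The Foxp2 class had only 2 such libraries and was not tested.

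Adora2a separated the kinds in both classes. In Rarb nuclei it was 0, 4.86 and 5.32 CPM in the Drd1-only and 92.6, 115 and 88.2 CPM in the Drd2-only nuclei (log2 difference 4.89 ± 0.46, adjusted p = 8.75e-06). In Pde1c nuclei it was 0, 9.17 and 7.91 against 52.5, 108 and 44.8 CPM (3.15 ± 0.42, adjusted p = 0.00299). The 2 kinds did not overlap in either class. Gnal was 322, 311 and 260 CPM in Drd1-only and 479, 494 and 470 CPM in Drd2-only Rarb nuclei (0.75 ± 0.14, adjusted p = 0.00359), a call that ended with higher gate thresholds (0.46, adjusted p = 0.387). In Pde1c nuclei its difference was −0.17 (adjusted p = 0.762), and whether the classes differ in this was not tested. Ppp1r1b differed by 0.31 in Rarb and −0.60 in Pde1c nuclei and Rgs9 by 0.15 and −0.30, with no call. Of the members tested, 2 of 4 were called in the Rarb class and 1 of 4 in the Pde1c class.

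Other genes that separated the kinds included known direct pathway genes. In Rarb nuclei, Isl1, a transcription factor of direct pathway neurons, was 49.8 CPM in Drd1-only and 3.83 CPM in Drd2-only nuclei (−3.55), and Ebf1 differed by −2.65. The potassium channel gene Kcnh8 (−3.71), Tafa1 (−3.36), Galnt14 (−2.61), Il1rapl2 (−2.60), Lingo2 (−2.60) and the adhesion gene Sdk1 (−2.57) were lower in Drd2-only nuclei as well. The study marks a cluster of the medial central amygdala by Il1rapl2 and Tafa1. It lists Ebf1 among further markers of that cluster, which it also finds elsewhere. The part of nuclei of that cluster in the Rarb differences was not tested. Higher beside Adora2a were Sh3rf2 (3.41), Calcrl, the receptor gene that is also a gate here (3.27), Bcan (3.16), Banf2 (2.53), Myo5b (2.44), Sulf1 (2.43) and the GABA receptor gene Gabrd (2.21). In Pde1c nuclei, Pdyn was 92.5 CPM in Drd1-only and 5.97 CPM in Drd2-only nuclei (−4.04). Ebf1 (−3.10), Adarb2 (−2.74), the kappa opioid receptor gene Oprk1 (−2.67), Lingo2 (−2.51), Elfn1 (−2.44), Zfp521 (−2.44) and Reln (−2.31) were lower too. Tll2 (4.18), Gm19410 (3.52), Prkcd (3.12), Sox5 (2.74), Fbxl7 (2.36), Grik3 (2.30) and Calcrl (2.29) were higher. Prkcd is a gate here too, and Sox5 is a check marker of that gate. Of the 495 Pde1c nuclei, 52 (10.5%) also held 2 or more Prkcd UMIs and 81 (16.4%) 2 or more Calcrl UMIs. The part of such nuclei in these differences was not tested. Ebf1, Lingo2, Adora2a and Calcrl were thus named in both classes with the same sign.

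By list, 4 of 5 direct pathway genes were lower and 0 higher in Drd2-only Rarb nuclei, and 3 of 6 indirect pathway genes higher and 0 lower (Penk 2.05, Sp9 1.71, Grik3 1.33). Of all genes, 2.63% were called lower and 2.99% higher in Drd2-only Rarb nuclei, and 1.22% and 0.807% in Drd2-only Pde1c nuclei. In Pde1c nuclei, 3 of 6 direct pathway genes were lower (Pdyn, Ebf1 and Tac1, −3.42) and the same 3 indirect pathway genes were higher. Of the cyclic AMP cascade, 8 of 20 genes were higher and 1, Gnas (−1.36), lower in Drd2-only Rarb nuclei, among them Pde1b (1.20), Pde10a (0.91) and Adcy5 (0.84). In Pde1c nuclei 0 of 21 were called in either direction by edgeR.

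**Figure D4:**
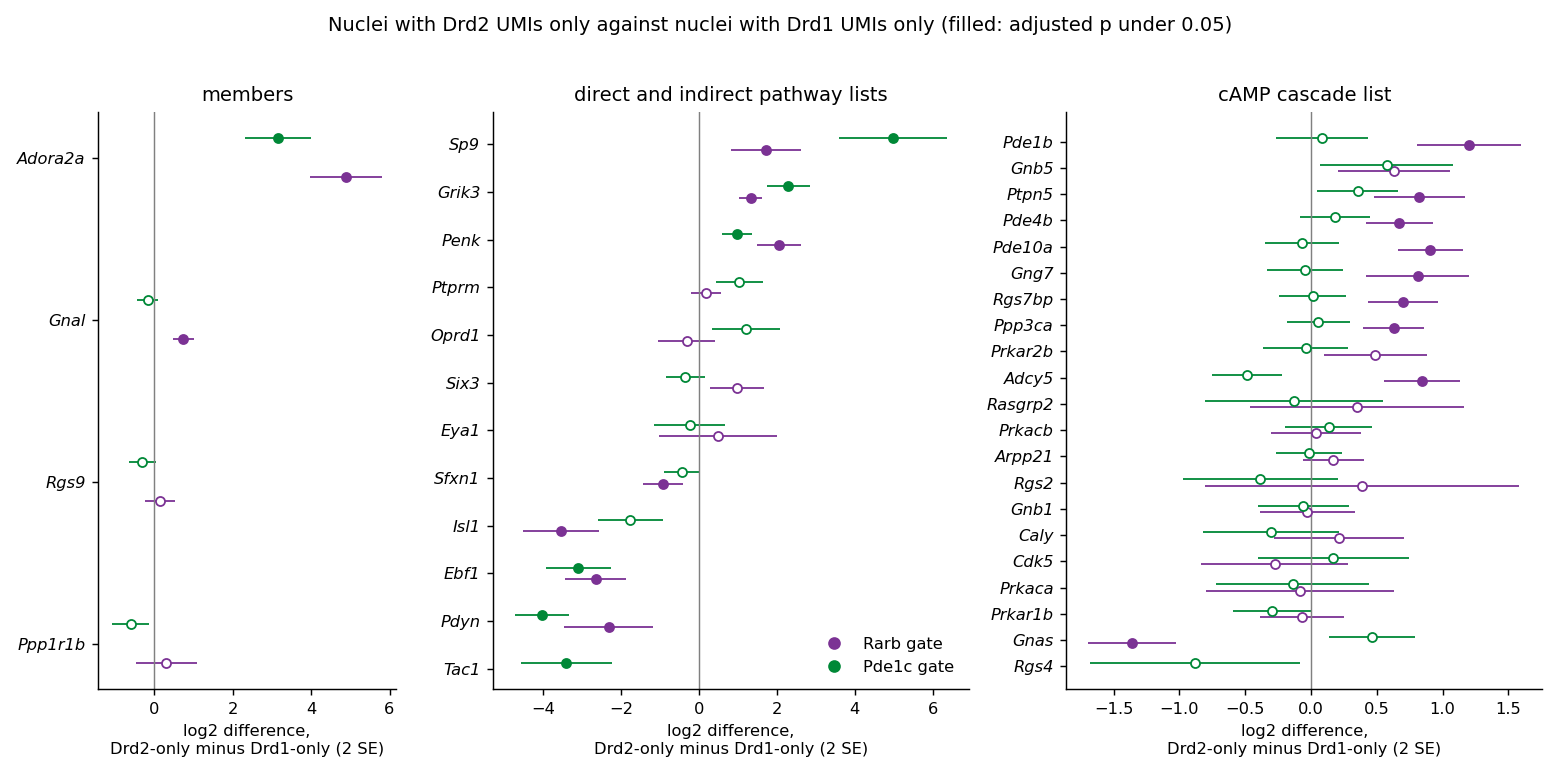
Log2 difference between Drd2-only and Drd1-only nuclei (horizontal axes, with 2 SE on either side) for members, direct and indirect pathway genes and cyclic AMP cascade genes (vertical axes) in the Rarb (purple) and Pde1c (green) classes; filled points had an adjusted p under 0.05. Adora2a lies to the right in both classes (4.89 and 3.15) and Pdyn and Ebf1 to the left, while the filled points of the cascade are all of the Rarb class.

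Genes whose pattern over the 40 sums of class and library was most like that of a receptor were named by Pearson's r among 6426 genes, as a description, since these sums share libraries and depth. For Drd2 these included Phactr1 (0.870), the NMDA receptor gene Grin2b (0.858), Mei4 (0.80) and Zswim5 (0.791). For Drd1 they were Garem1 (0.798), Lrp1b (0.782), Chn2 (0.780), Astn1 (0.705) and Vav3 (0.704), and for Drd3, a gene added to this after its values were seen, Cux1 (0.885), Slc2a13 (0.848), Tox (0.838), Fam189a1 (0.838) and Galnt18 (0.834). Tox is also a check marker of the Dnah5 class. Among the members, Drd2 was most alike to Gnal (0.696) and Adora2a to Ppp1r1b (0.691), with 0.574 for Drd2 and Adora2a and −0.438 for Drd2 and Drd3.

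Fasted and fed libraries were compared within each class, to ask whether the hunger state moves these genes. The groups also differed in quality. Kept nuclei had a median of 0.317% and 0.237% mitochondrial UMIs in fasted 1 and 2, against 0.136%, 0.0788% and 0.0529% in fed 1, 2 and 3. Fasted 1 and 2 held 7850 and 7291 barcodes before filtering, and fed 1, 2 and 3 held 4657, 2347 and 1694. The part of quality in the fasting differences was not tested. None of the 41 tests of members that passed the filter was called by edgeR's quasi-likelihood test, and none by its likelihood ratio test, by DESeq2 or with the replicate number as a block. Of all genes, 0.0859% of 68674 tests were called (0.628% with the block). An unadjusted p under 0.05 was found in 4 of the 41 member tests (9 with the block). The share of all genes at that level is not given here, so these counts do not show an excess among the members. With the block, fed 3 was the only library of its number and added nothing to the fasting difference. Of the 41, 18 differences were positive and 23 negative, from −0.87 to 1.19 log2 units. Fed and fasted libraries did not overlap in 7 of the 41, against 19.1% of tests over all genes.

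The lowest adjusted p was that of Ppp1r1b in the Dnah5 class. The fasted libraries held 47.4 and 39.9 CPM and the fed libraries 26.6, 16.5 and 15.1, a log2 difference of 1.19 ± 0.31 (adjusted p = 0.357, and 0.157 with the block). The 2 groups did not overlap, and within the libraries numbered 1 the fasted exceeded the fed by 0.81 and within those numbered 2 by 1.23. Drd3 in the same class was 0.48 ± 0.24 higher in fasted libraries (adjusted p = 0.967), with both fasted values above the 3 fed ones. Over all inhibitory nuclei Ppp1r1b was 0.42 higher in fasted libraries (adjusted p = 0.817). In Sst nuclei Gnal was 0.47 lower (adjusted p = 0.875, and 0.105 with the block) and Rgs9 0.50 higher (adjusted p = 0.872). Adora2a in Pde1c nuclei was 0.87 lower (adjusted p = 1.00), and 0.29 lower without fed 3, the Htr2a-Cre library. None of these passed the test.

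For Drd2, which could be tested in 6 classes, the differences with fasting were between −0.35 and 0.35 log2 units. In the Rarb class the difference was 0.07 ± 0.26 (SE), and 2 SE on either side covered a fold change of 0.730 to 1.51. The widest limits were −1.41 log2 units in the Prkcd class, where Drd2 averaged 12.1 CPM, and 1.00 in the Pde1c class. No gene passed the test of whether the fasting difference varied between classes by edgeR's quasi-likelihood test (0 of 9599, 568 at an unadjusted p under 0.05), while its likelihood ratio test called 63, and the lowest unadjusted p among the members was 0.0555, for Drd1. Of the cyclic AMP, direct, indirect and dopamine synthesis lists, no gene was called with fasting in any class.

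**Figure D5:**
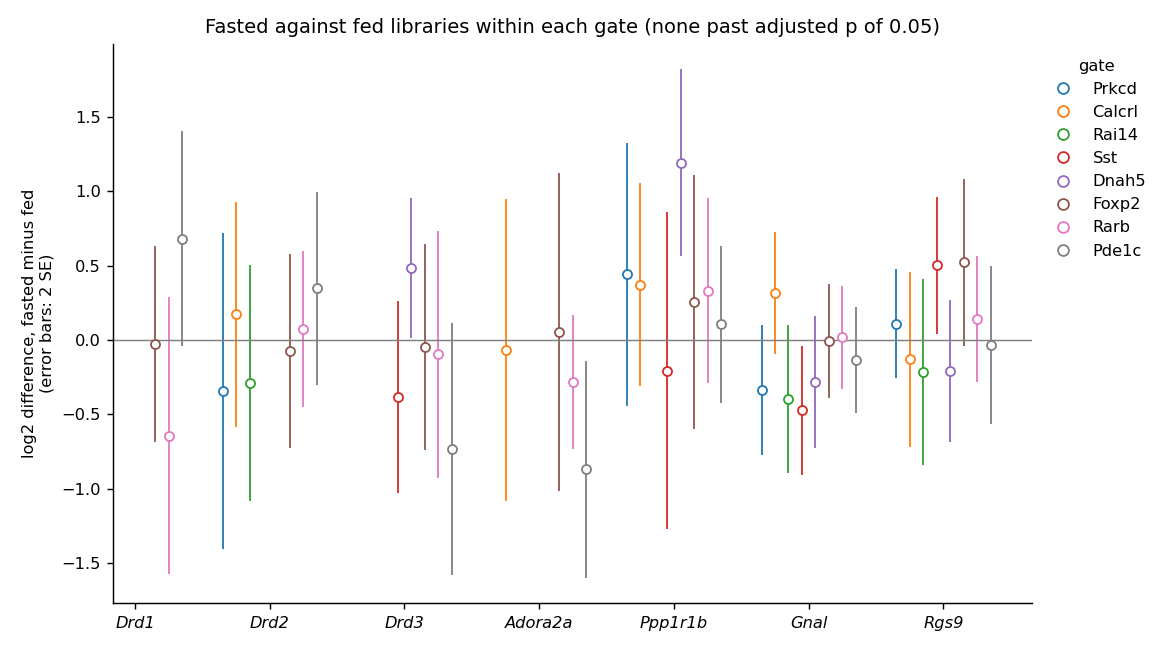
Log2 difference between fasted and fed libraries (vertical axis) of the genes that passed the filter (horizontal axis) in each class, by color, with 2 SE on either side. Open points had an adjusted p above 0.05, which is all 41 of them, and the highest point is Ppp1r1b in the Dnah5 class (1.19).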

How the data were processed

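The deposited files hold raw UMI counts per gene and barcode. Per the study's methods, the authors aligned reads to GRCm39 with Cre and mCherry added and counted intronic reads with Cell Ranger 5.0.0, the version the file headers give. The submitters' processing notes name Cell Ranger 2.1.1 and mm10, a conflict that was not resolved here. No normalization had been applied.

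The members and gene lists were chosen with earlier results of these data known. Nuclei were filtered and gated as stated, Pde1c, Foxp2 and Rarb taking precedence, Calcrl over Prkcd and Dnah5 over Sst. Called doublets (70 nuclei, scanpy 1.11.5) were kept. UMIs were summed per class and library where at least 10 nuclei were present, so that the library is the replicate. These sums were tested with edgeR 4.0.16 (quasi-likelihood test, TMM scaling, filterByExpr, Benjamini-Hochberg adjustment over all genes of a contrast, threshold 0.05). A difference between classes is that of a class's log level and the mean of the other 7 log levels, and a sum over a class does not tell fewer transcribing nuclei from fewer transcripts per nucleus. The study pairs each fasted library with 1 fed library by preparation batch, under its own numbers, and leaves 1 fed library in a separate batch. The labels do not say which fed library that is, so the match by number used here is an assumption. Deviations of same-numbered fed and fasted libraries from the group means correlated at 0.0812 to 0.291 for number 1 and 0.214 to 0.457 for number 2 over the 8 classes. Each sum carries counting error set by a median of 6608 to 16367 UMIs per nucleus, and limits on a count of 0 (3 counts) cover that error only.

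The genes named are the members. Beside them come, for Drd1-only against Drd2-only nuclei, the 8 called genes with the largest change in each direction and at least 20 CPM, the 5 genes most correlated with Drd1 and with Drd2, and the called genes of the lists. Of the genes most correlated with Drd2, 1 is not reported here. The scripts were tested on simulated counts. Alternatives were DESeq2 1.42.0, the likelihood ratio test, no filter on low counts, other gate thresholds, thinning to 4000 UMIs, a minimum of 1500 genes, removal of doublets, fed libraries alone, the replicate block and leaving out each library.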

Additional observations from a re-analysis of the deposited data

How the results depend on the processing

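Of the 37 calls of members between classes, 16 kept their direction and their call under every other setting in which they could be fitted. The 19 tests called higher became 11 and the 18 called lower 3 with nuclei thinned to 4000 UMIs, which also left 4301 of 12776 calls over all genes. For this setting the gates were applied again to the thinned UMIs, which left 221 Rarb, 50 Sst and 24 Rai14 nuclei. The shares of thinned nuclei given with the levels keep the original gates. In fed libraries alone 11 tests were called lower, and without fasted 2 also 11. Leaving out 1 library gave 15 to 18 higher, 11 to 16 lower and 9617 to 11566 calls over all genes. Of the called values, only Ppp1r1b in Calcrl nuclei changed sign, to −0.042 with lower gate thresholds and −0.29 with thinning. Lower depth and fewer libraries remove counts, and gating again changes the classes. The part of each was not tested.

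Differences without a call turned sign more often. With lower gate thresholds Drd1 was −1.40 in Rai14 and −0.60 in Sst nuclei and Drd2 −0.10 in Calcrl nuclei. With higher thresholds Gnal was 0.12 in Calcrl and −0.21 in Foxp2 nuclei, Adora2a −0.36 in Foxp2 nuclei and Rgs9 −0.061 in Pde1c nuclei. With thinning Adora2a (−1.49), Gnal (−0.13) and Rgs9 (−0.030) turned negative in Foxp2 nuclei, and Gnal was 0.26 in Calcrl and −0.34 in Sst nuclei. In fed libraries alone Drd1 (−1.26) and Ppp1r1b (0.044) turned in Sst, Adora2a (−0.17) in Foxp2 and Rgs9 (0.020) in Calcrl nuclei. With the Calcrl gate first, chosen after seeing the data, Drd1 was −0.066 in Sst and Adora2a −0.12 in Foxp2 nuclei, and Gnal reached 0.32 in Calcrl nuclei. Without 1 library, Drd1 in Sst nuclei was −0.31 to 0.57, Adora2a in Foxp2 −0.15 to 0.79, Gnal in Calcrl −0.17 to 0.023 and in Rai14 −0.0076 to 0.12, and Rgs9 in Rarb nuclei −0.0087 to 0.069.

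With fasting, 0 member tests were called under any setting. The 59 calls over all genes became 431 with the replicate block, 322 with the likelihood ratio test, 566 without a filter, 31 with higher gate thresholds, 28 with thinning, and 11 to 67 without 1 library, the 11 being without fed 3. The block pairs same-numbered libraries, which were assumed to share a preparation batch, and changed no call of a member. The likelihood ratio test called 63 genes for the interaction of class and fasting, against 0. Of genes separating Drd1-only from Drd2-only nuclei, 443 in Rarb nuclei became 209 with DESeq2 and 182 with higher gate thresholds. Without fed 2, fed 3 or fasted 2 there were 383, 425 and 269. Those fits kept no more libraries than the Foxp2 class, which was not tested for that reason. Fed 1 and fasted 1 had not entered this comparison in either class, so leaving them out changed nothing. The 158 in Pde1c nuclei became 97 with DESeq2, 299 with the likelihood ratio test, 373 without a filter and 147 to 166 without 1 library. The ratio of nuclei with both Drd1 and Drd2 to those expected, 0.574, was 0.299 with thinning, from 2 nuclei against 6.69, and 0.524 to 0.587 without 1 library.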
